A study of Rattus norvegicus with 24 samples.

Results

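The extensor digitorum longus (EDL) is a fast hindlimb muscle of the rat that extends the toes, and this comparison sets EDL at 30 months of age against EDL at 6 months. Its members are the 4 arrays labelled as EDL at 30 months and the 4 labelled as EDL at 6 months, 8 of the 24 arrays of the series. Per the labels, the other arrays hold EDL at 18 months and the extraocular muscles (EOM), which move the eye, at 6, 18 and 30 months, with 4 arrays in each of the 6 groups. Each array measured RNA from the pooled muscles of 4 rats, and the labels name no treatment or genotype for any group. Strain and sex are not given in the sources used here. The p-values below measure the spread between pools, not between single animals.

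Muscle fibres depend on contact with a motor nerve. In an innervated adult fibre the acetylcholine receptor is made almost wholly under the nerve ending. When contact is lost, the fibre is known to switch on receptor subunits along its length, together with the myogenic factor myogenin, the adhesion molecule NCAM and stress genes such as Gadd45a. Collagens I and III, the main fibrillar collagens of the sheaths around fibres, are made by fibroblasts.

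Fast myosin was high and extraocular myosin low on the EDL arrays at both ages, while slow myosin was also high at 6 months. The probe set of Myh4, the myosin heavy chain of the fastest fibres, read 19650 ± 2630 units (SD, n = 4) at 6 months and 18460 ± 2620 at 30 months. That of Myh13, the extraocular myosin, read 87.5 ± 17.7 and 98.3 ± 73.5 in EDL against 13490 ± 2270 and 15790 ± 3140 in EOM. The probe set of Myh7, the slow myosin, read 21330 ± 11900 in EDL at 6 months and 8778 ± 2150 at 30 months. The array least like its group was 30 month replicate 1 (median Spearman rho with the 3 others 0.873; other EDL arrays 0.915 to 0.94). Beta-actin signal from 3' probes over that from 5' probes, a measure that goes up when RNA is degraded, was 2.54 for 6 month replicate 1, 3.54 for 6 month replicate 2 and 1.16 to 1.85 on the 6 others compared. Its means did not differ beyond the spread (2.19 at 6 and 1.67 at 30 months, exact two-sided permutation test, p = 0.429, where 0.0286 is the smallest possible). At every age the first principal component of the EDL arrays separated replicates 1 and 2 from 3 and 4. Precision is limited by how few arrays there are.

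Far more transcripts were higher than lower in the oldest EDL. Of 5413 probe sets tested, 53 (0.979%) were called at an adjusted p under 0.05 in limma, of which 44 (0.813%) rose and 9 (0.166%) fell. All 53 had arrays of the 2 ages that did not overlap, and 40 of the rises and 8 of the falls were at least 2-fold. With each gene read from its brightest probe set, 25 of 3241 genes rose (0.771%) and 2 fell (0.0617%), and the median log2 fold change over all genes was 0.02. Called or not, the arrays of the 2 ages did not overlap for 99 genes that were higher and 33 that were lower. Same-numbered arrays of the 2 ages deviated together, and with the replicate number as a block 72 probe sets rose (1.33%) and 16 fell (0.296%), with all 53 calls kept. Without 30 month replicate 1 the counts were 23 and 2, without 30 month replicate 2 they were 19 and 2, and without the 2 arrays of high actin ratio at 6 months, an alternative added after seeing the data, 15 and 2. They were 26 and 4 without 6 month replicate 1, 28 and 3 without 6 month replicate 2, 40 and 14 without 30 month replicate 3 and 32 and 2 without 30 month replicate 4. With arrays centred on their medians, which moved the median change of all probe sets from 0.03 to -0.12, 24 rose and 11 fell. Fitted alone, replicates 1 and 2 gave 79 rises and 14 falls and replicates 3 and 4 gave none in limma. At an unadjusted p under 0.05, replicates 3 and 4 held 211 of 5311 probe sets and the main fit 407 of 5413. The first count is below the share of 0.05 that chance alone gives. All 53 calls had the same direction in both sets of replicates, which follows from their arrays not overlapping.

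**Figure D1:**
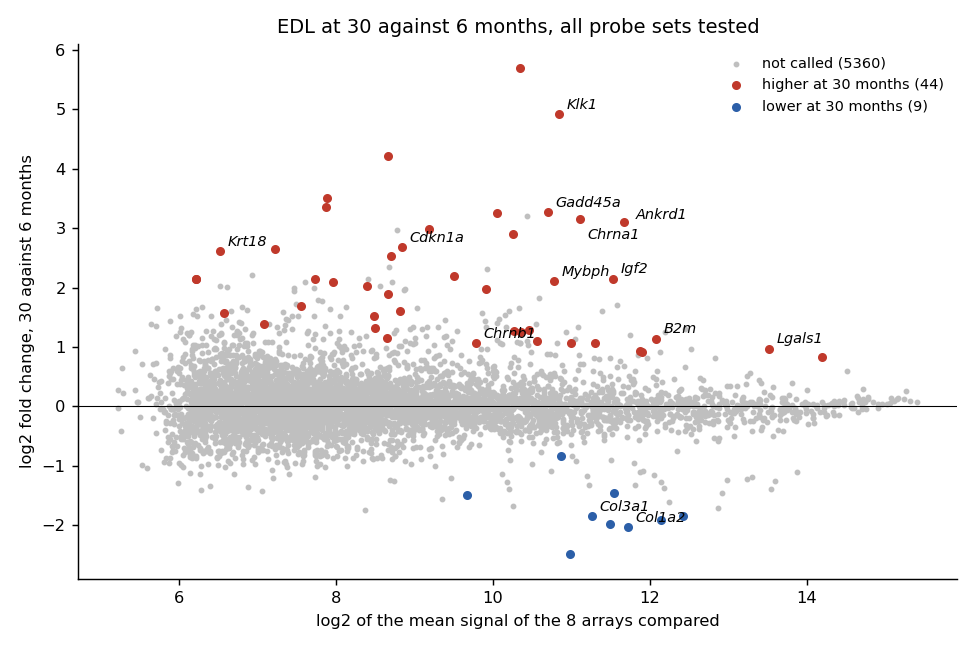
Each point is 1 probe set, with the log2 of its mean signal over the 8 arrays on the horizontal axis and its log2 fold change, 30 against 6 months, on the vertical axis. The 44 rises (red) reach log2 5.69 and lie from dim to bright signal, while the 9 falls (blue) gather among bright probe sets, Col1a2 and Col3a1 among them.

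Among the 30 gene lists, chosen with earlier results of these data known, that of the neuromuscular junction and the denervation response held the most rises. Of all genes tested 0.771% rose and 0.0617% fell. Of 31 genes on this list 23 were on the array and 20 were tested, and 6 rose while none fell. The 6 were the acetylcholine receptor subunits Chrna1, Chrnb1 and Chrnd, the stress gene Gadd45a, the transcription factor Runx1 and the potassium channel Kcnn3. The median log2 fold change of the 20 was 0.66, and stayed between 0.51 and 0.71 with quantile or median scaling and within either set of replicates. In these whole-muscle samples a change in the RNA per fibre cannot be told apart from a change in the number of fibres that make it.

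Chrna1 encodes the alpha subunit, which carries the binding site for acetylcholine. Its signal on replicates 1 to 4 was 332, 265, 1033 and 345 units at 6 months and 5468, 4867, 2691 and 2703 at 30 months. Every 30 month array exceeded every 6 month array, and replicate 3 was the highest at 6 months, well above the others (log2 fold change 3.15 ± 0.38 (SE), adjusted p = 0.000879). Chrnb1, the beta subunit, read 645, 487, 563 and 586 at 6 months and 1369, 1186, 1191 and 1019 at 30 months, 2 tight and separate groups (log2 fold change 1.06 ± 0.18 (SE), adjusted p = 0.00903). Chrnd, the delta subunit, read 151, 291, 564 and 127 at 6 months and 1536, 1589.8, 601 and 961 at 30 months (log2 fold change 2.20 ± 0.43 (SE), adjusted p = 0.0243). Here 6 month replicate 3 came close to 30 month replicate 3 without passing it.

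The subunits that tell adult from fetal receptors had smaller fold changes and were not called. Chrne, the adult epsilon subunit, averaged 381 ± 92 at 6 months and 627 ± 129 at 30 months, with overlapping arrays (log2 fold change 0.72 ± 0.31 (SE), adjusted p = 0.604). Chrng, the fetal gamma subunit, averaged 404 ± 135 and 681 ± 158, also overlapping (log2 fold change 0.79 ± 0.28 (SE), adjusted p = 0.375). Among other genes of the junction, Ache, Agrn, Colq, Lamb2, Utrn and Erbb3 had log2 fold changes from -0.41 to 0.08 and none was called. Erbb2, the partner of Erbb3, was higher on every old array (log2 fold change 0.97, adjusted p = 0.601) and was not called. Of all 3241 genes tested, 99 were higher on every old array. Chrne and Chrng are described because they complete the receptor, and they, Erbb2 and the 6 genes before it were chosen after their values were seen.

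The promoters of all 5 receptor subunits, called or not, hold E-box motifs, the letters to which myogenic bHLH factors such as myogenin bind in general. The stretches below, from RefSeq promoters on assembly GRCr8, read 5′ to 3′ on the gene's strand and show the motif in capitals. Those of the 3 subunits that rose are given because they carry the receptor part of the result; Chrne holds 1 such motif and Chrng 2.
Chrna1 (chr3:78877411-78877440, minus strand): ctgcgggcagctCAGCTGtcatgcaggcac
Chrna1 (chr3:78877363-78877392, minus strand): taacttgagagtCAGCTGgcccaaggcctg
Chrnb1 (chr10:55015131-55015160, minus strand): cgggtgggctggCAGCTGgtcccccgacaa
Chrnb1 (chr10:55015113-55015142, minus strand): gtcccccgacaaCAGGTGcacattcctggg
Chrnd (chr9:95310225-95310254, plus strand): ctaagccgccagCACCTGtccccttgcctg
The motif begins at -75 and -27 from the start of Chrna1, with another at -56 that is not printed because its stretch overlaps the first, at -41 and -23 for Chrnb1 and at -79 for Chrnd. Over windows of 300 bases, 250 before to 50 after each start, the palindrome CAGCTG, or the letters CACCTG on either strand (read as CAGGTG on the other), occurred in 11 of the 21 risen genes with a promoter entry, 52.4%. The share was 30.6% of the 2677 tested genes with an entry and 30.7% of all promoters in the table. For CAGCTG alone it was 23.8% of the risen and 17.5% of the tested genes, and for the general E-box CANNTG 66.7% and 62.5%, with 71.6% of all promoters. Runx1 and Igf2 rose and hold none of the 3 narrower motifs in this window. A match is a description of the letters and does not show that a factor binds there.

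Gadd45a, a growth-arrest and stress protein, showed the smallest adjusted p of any named gene. It read 216, 289, 468 and 254 units at 6 months and 4511, 3165, 1672 and 2700.1 at 30 months, a 9.67-fold difference with no overlap (log2 fold change 3.27 ± 0.32 (SE), adjusted p = 0.000198). Of its 3 other tested probe sets, 2 were also called higher. Runx1, a transcription factor that rises in denervated muscle, read 252, 306, 825 and 299 at 6 months and 1942, 1359, 1733 and 999 at 30 months (log2 fold change 1.98 ± 0.39 (SE), adjusted p = 0.0252). Its 6 month replicate 3 stood far above the other 3 of its age yet below all 30 month arrays. Kcnn3, a calcium-activated potassium channel of denervated and immature fibres, read 164, 41.2, 84.6 and 111 at 6 months and 471, 572, 288 and 265 at 30 months (log2 fold change 2.09 ± 0.40 (SE), adjusted p = 0.0226).

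Myogenin (Myog) and Ncam1 had log2 fold changes near those of Chrna1 and Gadd45a but missed the threshold, and they and Myod1 were chosen after their values were seen. Myog read 71.7, 567, 954 and 94.3 units at 6 months and 2682, 3123, 1766 and 1821 at 30 months (log2 fold change 3.21 ± 0.77 (SE), adjusted p = 0.0735). Ncam1 read 51.9, 46.7, 477 and 59.8 at 6 months and 640, 718, 843 and 681 at 30 months (log2 fold change 2.97 ± 0.68 (SE), adjusted p = 0.0567). For both genes the ages did not overlap, and the 6 month arrays were spread widely, with replicate 3 highest. With the replicate block the adjusted p was 0.0184 for Myog and 0.00661 for Ncam1, and also 0.042 against 0.107 for Myod1, the myogenic determination factor (log2 1.03). Ncam1 met the rule for testing only at 30 months, so only a rise could be called.

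The calls of Chrna1, Chrnb1 and Gadd45a were kept whichever single array was left out. Without 30 month replicate 1 the adjusted p rose to 0.103 for Chrnd, 0.103 for Runx1 and 0.0892 for Kcnn3. Without 30 month replicate 2 it was 0.095, 0.0841 and 0.0939, so that each of these arrays alone takes the count of called genes on the list from 6 to 3. Chrnd was also lost without 6 month replicate 1 or 4 or 30 month replicate 4, and Runx1 without 6 month replicate 1, 2 or 4 or 30 month replicate 3, at adjusted p up to 0.0956. Without both 6 month arrays of high actin ratio 2 genes of the list were called, and with arrays centred on their medians Chrnb1 (adjusted p = 0.159) and Kcnn3 (0.0591) were lost. Within replicates 1 and 2 the log2 fold change was 4.12 for Chrna1, 3.92 for Gadd45a and 2.9 for Chrnd, and within replicates 3 and 4 it was 2.18, 2.62 and 1.51.

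**Figure D2:**
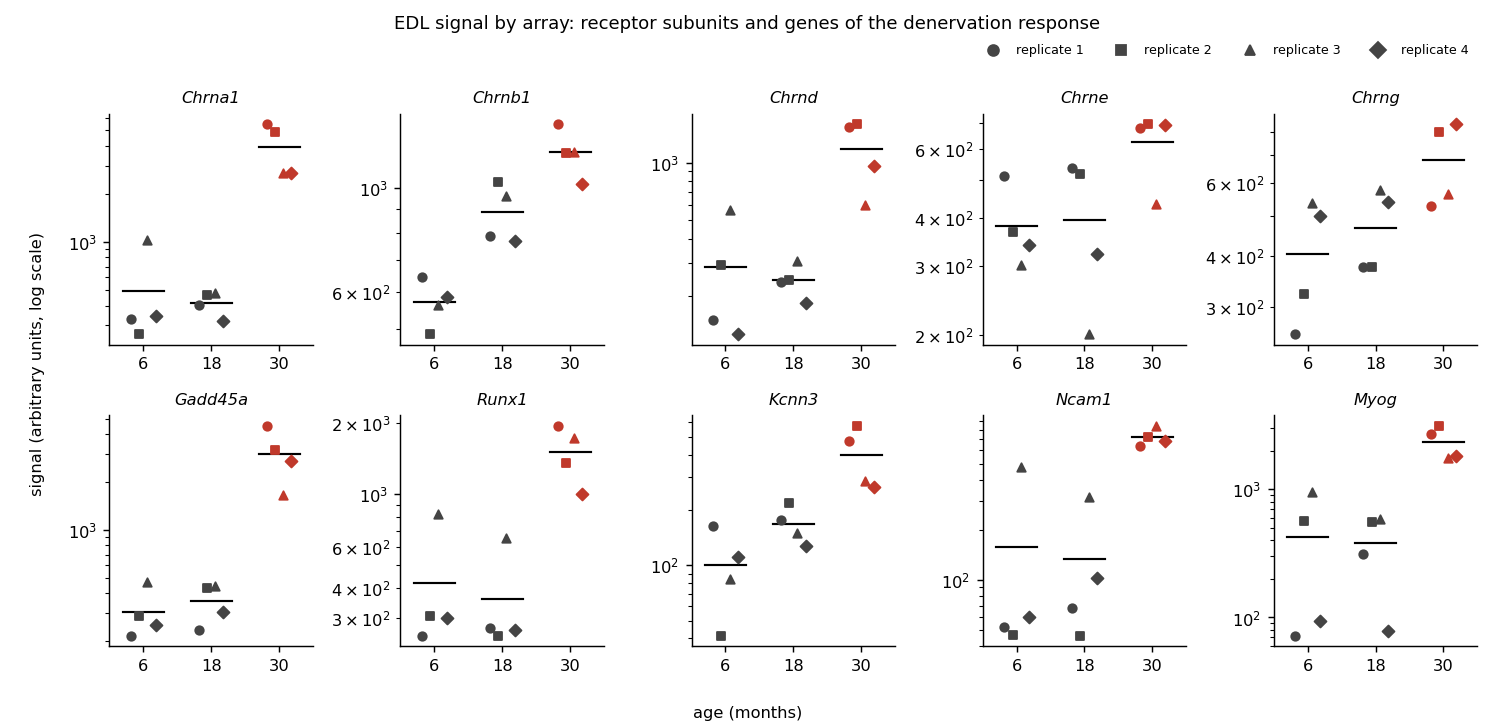
Signal on each EDL array (log scale) against age for 5 receptor subunits and 5 genes of the denervation response; symbols mark the replicate number, bars the mean of 4 arrays, and the 30 month arrays are red. Chrna1 and Gadd45a stand clear at 30 months, with means of 3932 and 3012 units, while 6 and 18 months lie together.

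Ankrd1, a stress-responsive ankyrin repeat protein of the sarcomere, read 398, 824, 1853 and 296 units at 6 months and 7628, 5175, 4640.2 and 5349 at 30 months. The old arrays lay close together and above all young ones, of which replicate 3 was again the highest (log2 fold change 3.10 ± 0.49 (SE), adjusted p = 0.00647). It was the only riser among 16 tested genes of the slow, cardiac and developmental sarcomere. Mybph, a myosin-binding protein of the thick filament, read 368, 863, 783 and 453 at 6 months and 5788, 2575, 1629 and 1601 at 30 months, highest on 30 month replicate 1 (log2 fold change 2.11 ± 0.38 (SE), adjusted p = 0.0148). Its call was lost without 30 month replicate 2 (adjusted p = 0.0605) or 6 month replicate 1 (0.0573).

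Cdkn1a encodes p21, an inhibitor of cyclin-dependent kinases that marks cell-cycle exit. Its probe set read 50.8, 73, 296 and 186 units at 6 months and 808, 655, 830.2 and 779.6 at 30 months (log2 fold change 2.68 ± 0.51 (SE), adjusted p = 0.0219). The 30 month arrays were nearly level, the 6 month arrays were not, and the groups did not overlap. A further Cdkn1a probe set was called higher too, but it met the rule for testing only at 30 months, so only a rise could be called. By brightest probe sets Cdkn1a was the only one of 20 myogenic and cell-cycle genes to pass, and a dimmer one of H19, an imprinted non-coding RNA, was called as well (log2 0.83, adjusted p = 0.0239). The call of Cdkn1a was lost without any one of 5 arrays, at adjusted p of 0.0579 to 0.0752 (6 month replicates 1 and 2, 30 month replicates 1, 2 and 4).

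Igf2, a growth factor of fetal and regenerating muscle, read 879, 1215, 989.7 and 1035 units at 6 months and 5643, 3972, 7406 and 2534 at 30 months. The young arrays were close together and the old ones ranged widely above them (log2 fold change 2.15 ± 0.32 (SE), adjusted p = 0.00416). This was 1 of 3 tested Igf2 probe sets, and the other two, both dimmer, gave log2 fold changes of 0.06 and -0.16 and were not called. Igf2 was the only one of 37 tested growth factors, receptors and inhibitors to be called by its brightest probe set. That of follistatin (Fst), which binds myostatin and activins, gave log2 2.09 (adjusted p = 0.161), while a dimmer Fst probe set passed. Igf2 kept its call whichever single array was left out.

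Another group of rises carried names from epithelia and nerve. Of 11 tested genes on the list of epithelium and glands, 3 rose and none fell, where 0.771% of all genes rose. Of these 3, Krt18 and Krt8 were tested only because they were high at 30 months. The median log2 fold change of the 11 was 0.63 (0.66 within replicates 1 and 2, 0.25 within 3 and 4). Klk1, tissue kallikrein, a protease made in glands and also in other tissues, read 73, 407, 145 and 24.4 units at 6 months and 2710.4, 6755, 2351 and 2219.9 at 30 months (log2 fold change 4.92 ± 0.81 (SE), adjusted p = 0.00784). No other named gene rose as far, and the lowest old array stood far above the highest young one. Klk1c3, a relative of Klk1, read 88.7, 103, 93.7 and 64.6 and 202, 399, 292 and 254 (log2 fold change 1.69 ± 0.30 (SE), adjusted p = 0.0122), but its probe set is of a kind that can bind several members of the family. Its call was lost without 30 month replicate 2 (adjusted p = 0.0605).

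Krt18 and Krt8, the keratin pair of simple epithelia, were near the floor of the measurement in young muscle. Krt18 read 3.4, 4.9, 35 and 2.8 units at 6 months and 198, 255, 139 and 98.6 at 30 months (log2 fold change 2.61 ± 0.40 (SE), adjusted p = 0.00518). Krt8 read 10.3, 7.7, 39.5 and 18.7 and 204, 137, 87.9 and 88.6 (log2 fold change 2.14 ± 0.44 (SE), adjusted p = 0.0306). On 3 of 4 young arrays both lay below the 25th percentile to which low values were raised, so the fold changes understate the difference. Both reached the level required for testing, the 40th percentile of an array, only at 30 months, so only a rise could be called. The call of Krt8 was lost without any one of 6 arrays (adjusted p up to 0.134, without 30 month replicate 1).

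The signal summed over the 20 epithelial and glandular genes on the array ran from 4027 to 8565 units at 30 months and from 1156 to 3385 at 6 months. Without Klk1, an alternative added after seeing the data, the ranges overlapped, through 6 month replicate 3 alone. The sums on replicates 1 to 4 were then 2036, 1810, 1880 and 1807 at 30 months and 1083, 1374, 3240 and 1381 at 6 months. Lyz2, a member of the list, read 2034.4 units on 6 month replicate 3 against 313.9 to 417.8 on the others of that age. Muc1, Krt10, Smr3b, Krt14, Klk1c9, Aqp5 and Cldn3 of that list were tested and not called, at log2 fold changes from -0.71 to 1.2. Whether cells other than fibres contributed to these rises was not tested. Uchl1, a deubiquitinase abundant in neurons, read 65.4, 24.3, 134 and 121 at 6 months and 586, 265, 248 and 262 at 30 months (log2 fold change 2.14 ± 0.47 (SE), adjusted p = 0.0428). It was called in none of the fits that left out 30 month replicates 1, 2, 3 or 4 or 6 month replicates 1 or 2 (adjusted p 0.0655 to 0.166), and the other 9 nerve and Schwann cell genes tested were not called, at log2 fold changes of -0.53 to 0.39. The summed signal of the 16 nerve genes overlapped between ages, 3354 to 4352 against 3724 to 4672 units.

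Parts of class I antigen presentation rose. B2m, the light chain of class I molecules, read 2071, 3228, 3705 and 2051 units at 6 months and 5886, 6751, 6128 and 4857 at 30 months, without overlap (log2 fold change 1.14 ± 0.22 (SE), adjusted p = 0.0219). RT1-A, a classical class I heavy chain, averaged 2642 ± 176 and 5017 ± 724 (log2 fold change 0.92 ± 0.15 (SE), adjusted p = 0.00889), and RT1-CE16 averaged 5140 ± 205 and 9365 ± 2520 (log2 fold change 0.82 ± 0.19 (SE), adjusted p = 0.0587, 0.0469 with the replicate block). Class I probe sets can bind several RT1 genes, so the split between them is uncertain. RT1-A is on no list and was chosen after its values were seen. Of the 21 tested genes on the list of antigen presentation and the interferon response, which does not hold RT1-A, B2m alone passed, and the class II genes RT1-Ba, RT1-Bb, RT1-Da, RT1-Db1 and Cd74 had log2 fold changes from -0.03 to 0.16. The call of B2m was lost without 30 month replicate 1 (adjusted p = 0.0752) or 2 (0.0864) or 6 month replicate 1 (0.0831) or 4 (0.0596), and with arrays centred on their medians (0.11), where RT1-A was lost as well (0.227).

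Lgals1, a galectin of muscle and connective tissue that also stands on the macrophage list, averaged 7831 ± 962 at 6 months and 15720 ± 4690 at 30 months (log2 fold change 0.97 ± 0.20 (SE), adjusted p = 0.0294). The other 19 macrophage, complement and inflammation genes tested were not called. The summed signal of that list, 13866 to 19009 units at 6 months and 19254 to 28372 at 30 months, separated only through Lgals1: without it, also added after seeing the data, the sums ran from 5695 to 12540 and from 5974 to 7596, and overlapped. Lgals1 kept its call only without 30 month replicate 3 among the 8 fits that left out 1 array, with adjusted p of 0.0573 to 0.103 in the 7 others.

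Of 40 genes of the ubiquitin system, the proteasome and the lysosome, 2 rose, Uchl1 and Ctsl, where 0.771% of all genes rose. Ctsl, cathepsin L, a lysosomal protease that rises in wasting muscle, read 1367, 1547, 1943 and 1664 units at 6 months and 4102, 3584, 3074 and 2856 at 30 months (log2 fold change 1.06 ± 0.19 (SE), adjusted p = 0.0122). The groups were far apart for their spread, and the call was lost without 30 month replicate 1 (adjusted p = 0.0553) or 2 (0.059). Trim63, the muscle ubiquitin ligase MuRF1, gave log2 0.60 (adjusted p = 0.601). Gstm2, a glutathione transferase, rose from 1341 ± 425 to 2731 ± 372 (log2 fold change 1.07 ± 0.21 (SE), adjusted p = 0.0266) as 1 of 41 antioxidant genes, and another Gstm2 probe set and a dimmer one of Gstm1 were called higher too.

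Single genes of other kinds made up the rest, of which Slc29a1, Emb and Hook1 were on no list and were chosen after their values were seen. Slc29a1, a nucleoside transporter, rose from 708 ± 77.3 to 1753 ± 465 units and kept its call in all 8 fits that left out 1 array (log2 fold change 1.27 ± 0.21 (SE), adjusted p = 0.0073). Emb, embigin, a membrane glycoprotein, rose from 207 ± 33.4 to 693 ± 349 (log2 fold change 1.61 ± 0.34 (SE), adjusted p = 0.0338), and a dimmer Emb probe set rose by log2 3.35. That dimmer probe set met the rule for testing only at 30 months, so only a rise could be called. Acsl4, an acyl-CoA synthetase, was the only riser of 43 genes of fatty acid oxidation and the TCA cycle (log2 fold change 1.53 ± 0.31 (SE), adjusted p = 0.0305), and Polr1a, the large subunit of RNA polymerase I, the only one of 45 on the ribosomal and translation list (log2 fold change 2.65 ± 0.55 (SE), adjusted p = 0.0316). Polr1a met the rule for testing only at 30 months, so only a rise could be called. Hook1, a microtubule adaptor, rose by log2 1.39 (adjusted p = 0.0441) and lost its call in all 8 fits that left out 1 array. Gstm2, Emb, Acsl4 and Polr1a lost theirs in 5 or 6 of the 8, each among them without 30 month replicate 1, at adjusted p of 0.104, 0.115, 0.109 and 0.134.

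Collagen made up most of the falls: 5 of the 9 fallen probe sets were of Col1a1, Col1a2 or Col3a1, 1 was of Sparc and 3 had no single symbol. Of 14 tested genes of fibrillar collagens and collagen processing 2 fell and none rose, where 0.0617% of all genes fell and 0.771% rose. The median log2 fold change of the 14 was -0.73 (-0.46 within replicates 1 and 2, -0.97 within 3 and 4). Col1a2, the alpha 2 chain of collagen I, read 3971, 5754, 4514 and 7388 units at 6 months and 1156, 766, 1812 and 1704 at 30 months (log2 fold change -2.03 ± 0.30 (SE), adjusted p = 0.0037). Col3a1, collagen III, read 2345, 3513, 6101 and 3368 and 795, 707, 1743 and 1023 (log2 fold change -1.85 ± 0.31 (SE), adjusted p = 0.00889). In both genes the lowest young array stood above the highest old one, and both calls were kept whichever single array was left out.

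Col1a1, the partner chain of collagen I, read 4241, 7195, 6846 and 9867 units at 6 months and 1312, 1163, 5068 and 3127 at 30 months on its brightest probe set, where 30 month replicate 3 overlapped the young range (log2 fold change -1.60 ± 0.44 (SE), adjusted p = 0.149). Another 3 Col1a1 probe sets were called lower, at log2 fold changes of -2.49, -1.98 and -1.91. With the replicate block the adjusted p was 0.00999 for Col1a1, 0.0118 for Col5a2, a chain of collagen V, and 0.00999 for Pcolce, an enhancer of procollagen cleavage, against 0.169 and 0.0818 without it for the last pair. That makes 5 falls on the list, where 0.216% of all genes were called lower and 1.39% higher with the block. The enzymes that modify collagen, P4ha1, P4hb, Plod1, Plod2 and Plod3, ranged from -0.33 to 0.45 and were not called.

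None of the 30 other matrix genes tested was called by its brightest probe set. For Sparc, a collagen-binding glycoprotein, that probe set gave log2 0.25 (adjusted p = 0.958) while a dimmer one fell by 1.49 (adjusted p = 0.0252), and all 3 of its dimmer probe sets had the opposite sign. The reading of Sparc therefore depends on the probe set.

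**Figure D3:**
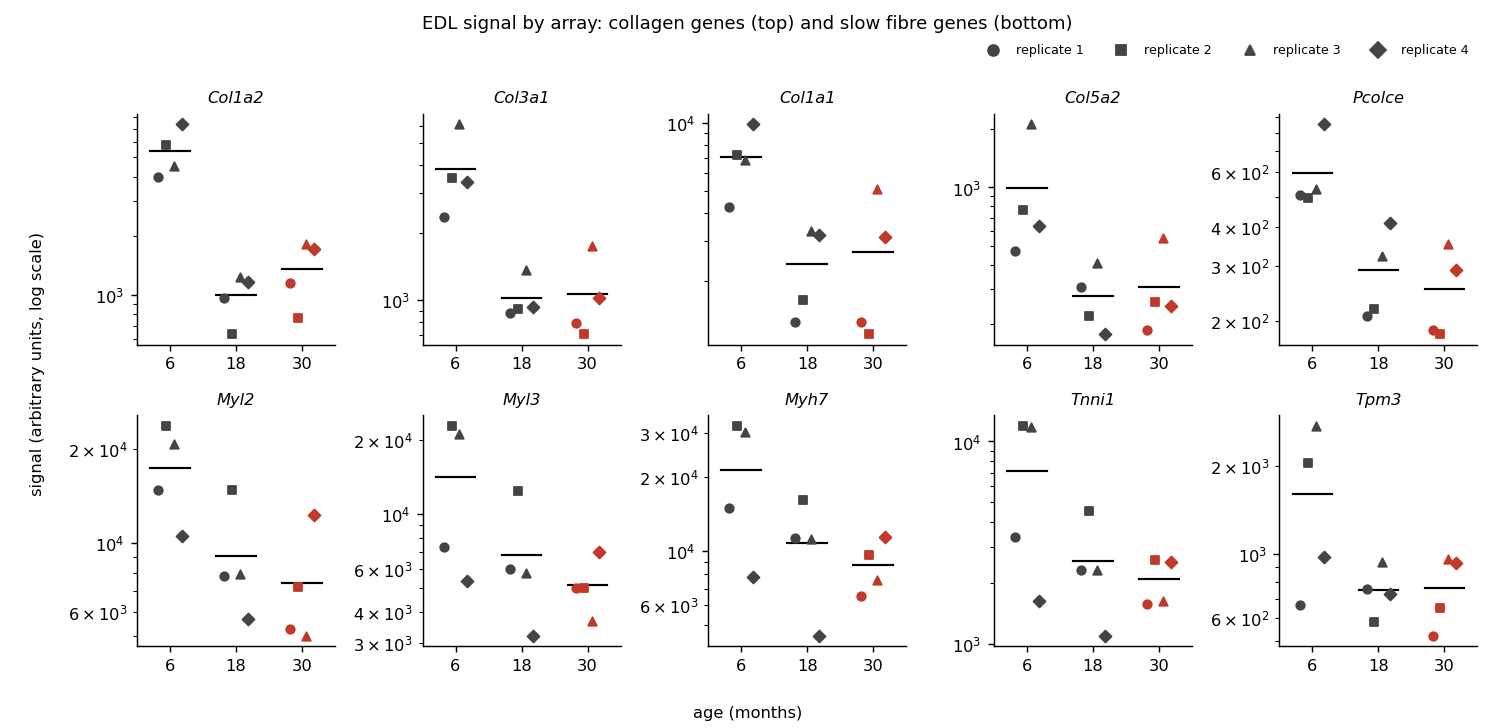
Signal on each EDL array (log scale) against age for 5 collagen genes (top) and 5 genes of slow fibres (bottom), with symbols for the replicate number and bars for the mean of 4 arrays. Col1a2 drops from a mean of 5407 units at 6 months to 997 at 18 months and stays low, and the slow genes spread over a wide range at 6 months.

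Genes of slow fibres were lower on average at 30 months but did not pass, and those named here were chosen after their values were seen. Myh7, the slow myosin heavy chain, read 14896, 32183, 30415 and 7818 units at 6 months and 6540.3, 9589, 7595 and 11386 at 30 months (log2 fold change -1.10 ± 0.43 (SE), adjusted p = 0.515). Tnni1, slow troponin I, read 3376, 11925, 11801 and 1627 and 1584, 2607, 1641 and 2549 (log2 fold change -1.37 ± 0.56 (SE), adjusted p = 0.537). For both, 6 month replicates 2 and 3 were high while replicate 4 lay within the old range. Of the 16 tested genes of the slow, cardiac and developmental sarcomere none was called lower. At an unadjusted p under 0.05, 6 of the 16 were lower, as were 65 of all 3241 genes. The 17 fast sarcomere genes were not called either, with log2 fold changes from -0.5 to 0.61.

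**Figure D4:**
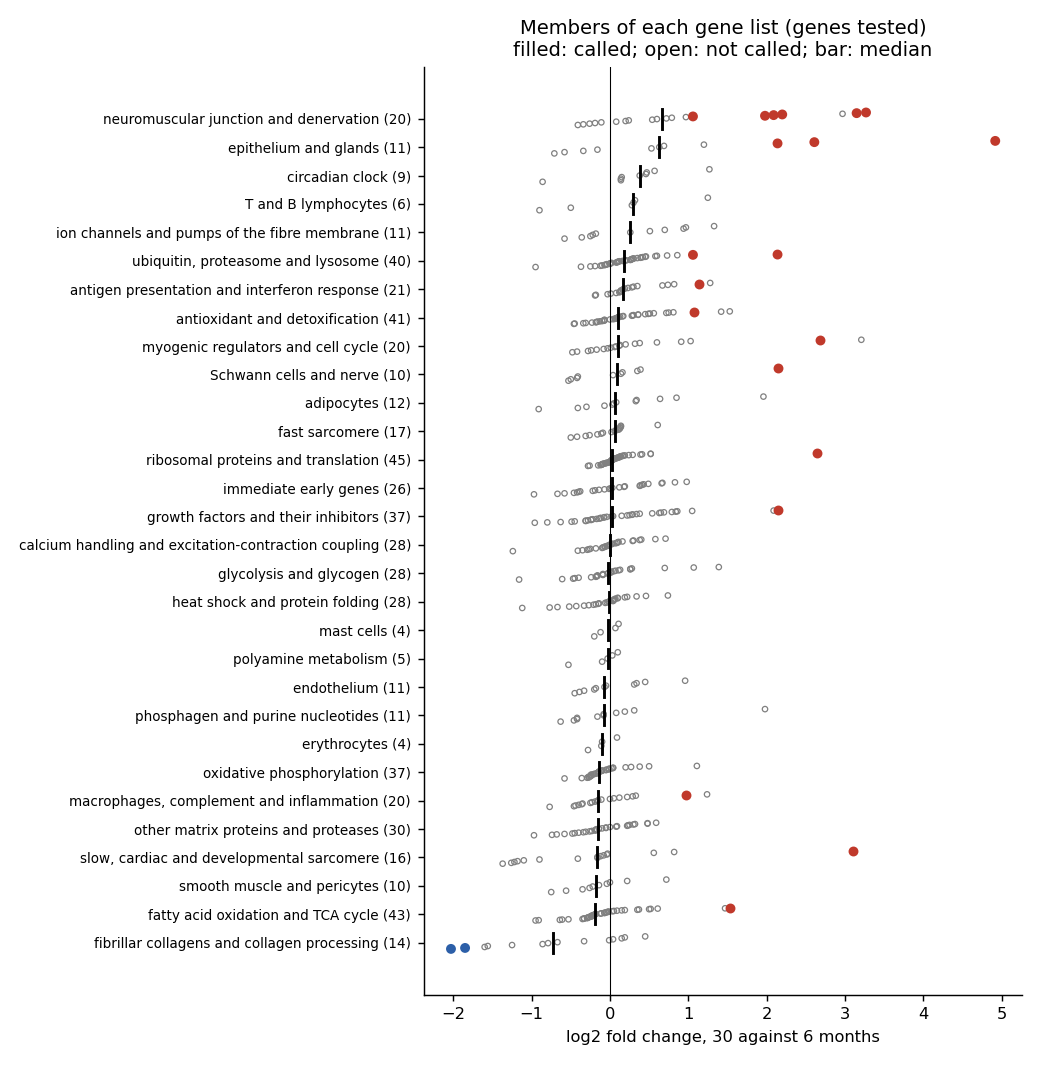
Log2 fold change, 30 against 6 months, of every tested member of the 30 gene lists, with called genes filled (red higher, blue lower), the others open, the list's median as a bar and the number of genes in brackets. The called genes are few on any list, most on that of the neuromuscular junction (6 of 20). The only called falls are the 2 collagens, and the lists were chosen with earlier results of these data known.

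The other 17 lists gave no call in limma in either direction, and each held at most 3 genes higher and 3 lower at an unadjusted p under 0.05. Over all 3241 genes 160 were higher and 65 lower at that threshold. On the lists without a call were 28 genes of calcium handling, 28 of glycolysis, 37 of oxidative phosphorylation, 28 of heat shock and 9 of the circadian clock. The markers of adipocytes, endothelium, smooth muscle, erythrocytes, mast cells and lymphocytes also gave none, and the summed signal of each overlapped between the ages. With the replicate block 1 gene rose on each of 4 of these lists, those of phosphagen and purine nucleotides, oxidative phosphorylation, adipocytes and immediate early genes.

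At 18 months most of the risen transcripts lay near their 6 month level and most of the fallen ones near their 30 month level. Both steps share the 18 month arrays, and each shares arrays with the comparison that chose the probe sets, so their values and counts are given side by side with no test between them. Over the 44 risen probe sets the median log2 fold change was 0.26 from 6 to 18 months and 1.72 from 18 to 30 months. For 39 of the 44 the 30 month arrays lay clear of the 18 month arrays, and 27 were called at 30 against 18 months, where 0.739% of all probe sets were called higher. Since the 30 month arrays enter both comparisons, nothing is read from either count. For 3 of the 44, both Hook1 probe sets and that of Chrnb1, the 18 month arrays already lay clear above the 6 month arrays. Over the 9 fallen probe sets the median was -1.84 from 6 to 18 months and 0.02 from 18 to 30 months. For 8 of the 9 the 18 month arrays were already clear below the young ones, yet 1 probe set alone was called at 18 against 6 months (0.0185%), that of Col1a2 (log2 -2.44, adjusted p = 0.00434), with 12 called, all lower (0.222%), under the replicate block. At an unadjusted p under 0.05 there were 274 of 5413, near the share of 0.05 that chance alone gives. How many of all probe sets lay clear at 18 months was not counted, so nothing is read from the counts that did.

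Chrna1 shows the course of a riser, with means of 494, 416 and 3932 units at 6, 18 and 30 months. Gadd45a ran 306, 355 and 3012, Ankrd1 843, 566 and 5698, and Igf2 1030, 1495 and 4889. Hook1 ran 76.0, 179 and 194.8, already at its 30 month level at 18 months. Chrnb1 differed in having an intermediate mean at 18 months, with 570.2, 886 and 1191. Col3a1 ran 3832, 1023 and 1067.

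EOM served as a muscle of the same ages. In a fit of all 24 arrays the change in EDL minus the change in EOM was called for 11 of 5741 probe sets (0.192%), all higher in EDL and all among the 44 rises. The same EDL arrays enter the comparison that chose the rises, so nothing is read from that overlap. The largest differences between muscles in named genes were 3.01 ± 0.42 for Chrna1 (adjusted p = 0.000321), 2.98 ± 0.57 for Ankrd1 (0.015) and 2.88 ± 0.36 for Gadd45a (0.000121). Igf2 (2.12), Ctsl (1.41), Slc29a1 (1.3) and Chrnb1 (1.09) were called as well, with dimmer probe sets of Klk1 and Fst. EOM began higher for the receptor: Chrna1 averaged 1622 units at 6 months in EOM and 1771 at 30 months. In EOM itself 2 probe sets (0.0348%) were called at 30 against 6 months. Of the 5741, 132 had an unadjusted p under 0.05, below the share of 0.05 that chance alone gives.

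The difference between muscles was not called for Klk1 on its brightest probe set (3.93 ± 0.91, adjusted p = 0.0767) or for Polr1a (2.95 ± 0.69, 0.0883), and with the replicate block it was, at 0.0057 and 0.0248. Krt18 (0.0447), Runx1 (0.0248), Acsl4 (0.00457), Lgals1 (0.00858), Gstm2 (0.0144), B2m (0.037) and Myog (0.0447) also passed with the block and not without it. The block raised the count of differences from 11 to 34, and leaving out 6 month replicate 3 of EDL raised it to 27. For the collagens no difference was detected: Col1a2 changed by -2.03 in EDL and -1.12 ± 0.29 in EOM (difference -0.91 ± 0.41, adjusted p = 0.998), and Col3a1 by -1.85 and -1.3 ± 0.36 (-0.55 ± 0.51, 0.998). The EOM values did not pass on their own (adjusted p of 0.46 and 0.59). A p that misses the threshold does not show that the muscles changed alike.

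**Figure D5:**
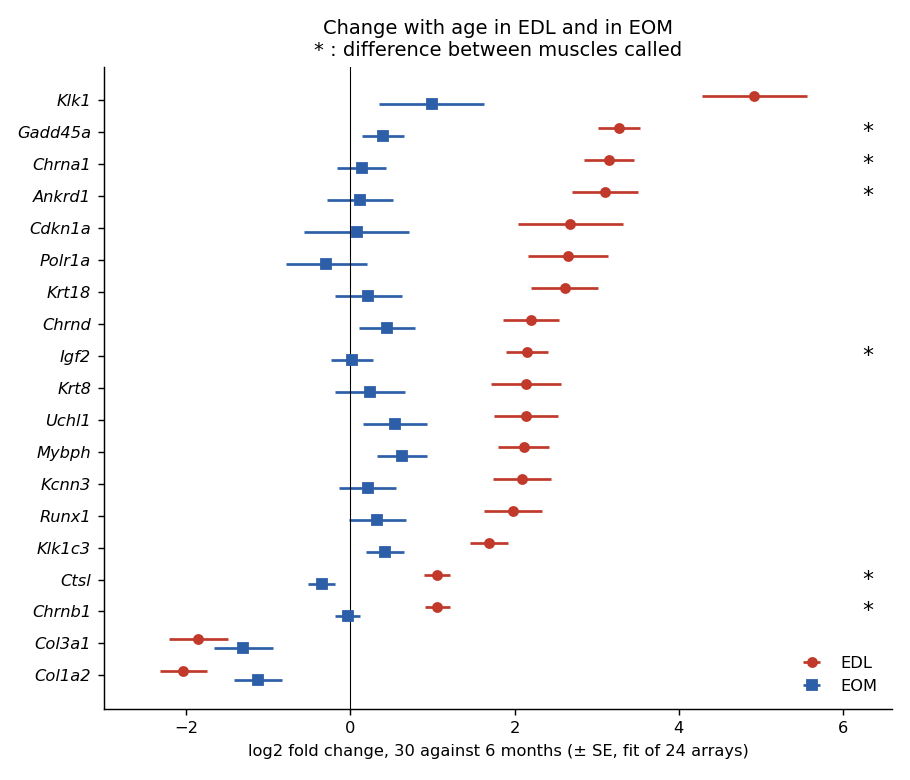
Log2 fold change, 30 against 6 months (± SE, fit of 24 arrays), in EDL (red circles) and EOM (blue squares) for the named rises and falls, with asterisks where the difference between muscles was called. Chrna1 stands at 3.15 in EDL and 0.14 in EOM, whereas Col1a2 and Col3a1 lie below 0 in both muscles.

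Of the 53 called probe sets, 10 had no single gene symbol. The largest rise of all was among them, AF030089UTR#1_at, at 14.6, 85.6, 72.6 and 23.8 units at 6 months and 3913, 3509, 1119.8 and 1631 at 30 months (log2 fold change 5.69 ± 0.57 (SE), adjusted p = 0.000198). Its difference from EOM was also the largest called (5.49 ± 0.68, adjusted p = 0.000121). U39609_s_at rose by log2 3.5 in EDL and by 3.08 in EOM (adjusted p = 0.00518 and 0.0206), 1 of the 2 calls in EOM. In EDL both AF030089UTR#1_at and U39609_s_at met the rule for testing only at 30 months, so only a rise could be called. U75405UTR#1_f_at fell in EDL (log2 fold change -1.84 ± 0.37, adjusted p = 0.0255).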

How the data were processed

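The deposited values are linear signal intensities, 1 per probe set and array of the Affymetrix Rat Genome U34, produced by the authors in MAS 5.0 (Affymetrix), as the design text states and per the submitters' processing notes. Their trimmed means were alike on all arrays, so no scaling was added. Of 8799 probe sets 59 controls were removed. Values below their array's 25th percentile were raised to it and log2 was taken. The 5413 probe sets above the 40th percentile on at least 3 of 4 arrays of at least 1 EDL group were tested, and 3327 were not.

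Group means of the 12 EDL arrays were fitted with limma 3.58.1 in R 4.3.3 (lmFit, eBayes with an intensity trend, 9 residual degrees of freedom). The contrast of changes between muscles used all 24 arrays (18 degrees of freedom, 5741 probe sets). Two-sided p-values were adjusted (Benjamini-Hochberg) over all probe sets tested, and calls are at an adjusted p under 0.05. The script was tested on simulated data.

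A gene was read from its brightest probe set with 1 symbol (7006 of 8740; 308 had several, 1426 none). Named were up to 15 of the largest called rises and of the falls. Their arrays did not overlap and their brighter mean was above the median of all EDL values. Only 2 falls met this rule. Also named were called members of 30 lists with the 2 brightest uncalled ones, and up to 5 of the largest differences from EOM each way. The members and lists were chosen with earlier results of these data known.

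Same-numbered 6 and 30 month arrays deviated together (r = 0.14, 0.34, 0.34 and 0.32 over probe sets), so the replicate block is given where it changes a call. No label says what the numbers stand for. Alternatives varied scaling, floor, filter, arrays, spread model, block and single arrays.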

Additional observations from a re-analysis of the deposited data

Results flagged for a closer look

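Among 166 sets of 4 arrays examined for the named genes, 13 held an array far from the other 3; chance alone gives about 1 in 20. At 6 months these were Runx1 on replicate 3 (825.4 units, the others 251.8 to 306.1), Lyz2 on replicate 3 (2034.4 against 313.9 to 417.8), Igfbp6 on replicate 4 (1894.1 against 1425.6 to 1464.6), Psme1 on replicate 4 (3925.8 against 2532.1 to 2573.5) and Atp1b1 on replicate 1 (8121.2 against 7000.6 to 7170.5), all highest, and Cav1 on replicate 2, lowest (37.4 against 628.2 to 1009).

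At 30 months Uchl1 on replicate 1 (586.1 against 247.9 to 265.4) and Aqp1 on replicate 2 (2150.6 against 1764.1 to 1767.8) were highest. Lowest were Atp1b1 on replicate 1 (3764.9 against 5178.2 to 5507.7), Cma1 on replicate 1 (163.8 against 226.8 to 230.5), Acsl4 on replicate 4 (370.4 against 559.2 to 594), Idh2 on replicate 3 (9067.8 against 13468.4 to 14235.2) and Rps29 on replicate 3 (17634.7 against 26324.1 to 27693.2).

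The change from 6 to 30 months differed between EDL and EOM, by the fit of 24 arrays in limma, for 7 named genes by their brightest probe sets. On the log2 scale it was larger in EDL by 3.01 for Chrna1, 2.98 for Ankrd1, 2.88 for Gadd45a, 2.12 for Igf2, 1.41 for Ctsl, 1.3 for Slc29a1 and 1.09 for Chrnb1.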

How the results depend on the processing

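All 53 calls kept their direction under every alternative in which they were tested. Because the arrays of the called probe sets did not overlap, fits of fewer arrays had to keep it, and nothing is read from those. The 44 rises and 9 falls became 85 and 22 in a fit of all 24 arrays, 27 and 4 with only the 8 arrays compared, 72 and 16 with the replicate block, 79 and 14 in replicates 1 and 2, 0 and 0 in replicates 3 and 4, and 87 and 18 by a rule like that of the series' design text (all 16 array pairs in 1 direction, ratio of means above 2). Median centring gave 24 rises against 11 falls, a share of 68.6% higher against 83%. Falls numbered 3 without an intensity trend. Leaving out both 6 month arrays of high actin ratio, chosen after seeing the data, gave 15 and 2. Leaving out single arrays gave 19 to 52 rises and 2 to 14 falls, 3 to 7 rises on the list of the neuromuscular junction (6 in all, 0 in replicates 3 and 4, 2 without the 2 arrays of high actin ratio), 2 to 3 falls among collagen genes (2 in all, 5 with 24 arrays or the block, 0 in replicates 3 and 4) and 9 to 27 differences from EOM (11 in all, 34 with the block). Fits of fewer arrays have fewer residual degrees of freedom; the cause of the other shifts was not tested. For the change with age, the block altered the call of 1 further gene examined, Plpp1 (adjusted p = 0.0469), and no other. Median centring ended the calls of Acsl4, B2m, Chrnb1, Ctsl, Emb, Gstm2, Hook1, Kcnn3, Lgals1, Polr1a, RT1-A and Slc29a1. Signal near the floor limits what can be said of dim transcripts.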
